A study of Mus musculus with 12 samples.

Results

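The genes described here carry the calcineurin, NFAT and CaMKII signals of cardiac hypertrophy, 10 of the 27504 genes in the count matrix. They were chosen by name and role, with earlier results of these data known. They were Rcan1 and Rcan2, which encode binding proteins that restrain calcineurin; Ppp3ca and Ppp3cb, which encode its alpha and beta catalytic subunits; the transcription factors Nfatc1, Nfatc3 and Nfatc4; Camk2d and Camk2g, which encode the delta and gamma chains of CaMKII; and Hdac5, a class IIa histone deacetylase. All 10 were present in the matrix and all 10 passed the filter on low counts. The RNA came from hearts of wild-type C57BL/6 mice at postnatal day 45. Hearts of a hypertrophy model made with angiotensin II (AngII) were set against hearts of sham-operated mice, and every mouse received an agent by the gastric route for 7 days. In each arm that agent was the vehicle (called menstruum in the labels), gastrodin at 5 mg/kg/day or gastrodin at 50 mg/kg/day, which gave 6 groups of 2 libraries. Gastrodin is a plant phenol joined to glucose. The sources used here do not give the dose, route or duration of AngII, and the libraries are named below by the numbers they carry, 1 to 6 for AngII and 7 to 12 for sham, each in order of dose.

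Calcineurin is a phosphatase that calcium-loaded calmodulin switches on. In the heart muscle cell it strips phosphate from NFAT proteins, which then enter the nucleus and turn on genes of hypertrophic growth, among them Rcan1, whose product binds back to calcineurin. CaMKII, also switched on by calmodulin, signals to class IIa histone deacetylases, which once phosphorylated leave the nucleus and release the transcription factor MEF2. These steps act on proteins, and transcript counts measure the amount of RNA for each component, not phosphorylation or location.

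The promoter windows of Rcan1 and Hdac5 are shown because these were the genes whose counts passed the test between AngII and sham hearts, and because NFAT and MEF2 are the factors named above. Each is the 250 bases before a RefSeq start on GRCm38.p6, on the minus strand, read 5′ to 3′. RefSeq windows were found for 7 of the 10 genes. The windows of Rcan1 lay at chr16:92466170-92466419 for one start and at chr16:92400079-92400328 for the start of an alternative first exon, and that of Hdac5 at chr11:102230173-102230422. None of the 3 windows shared a base with an annotated exon. Capitals mark the NFAT core GGAAA, or TTTCC where it lies on the other strand, in Rcan1 and the MEF2 motif in Hdac5.
Rcan1 upstream start: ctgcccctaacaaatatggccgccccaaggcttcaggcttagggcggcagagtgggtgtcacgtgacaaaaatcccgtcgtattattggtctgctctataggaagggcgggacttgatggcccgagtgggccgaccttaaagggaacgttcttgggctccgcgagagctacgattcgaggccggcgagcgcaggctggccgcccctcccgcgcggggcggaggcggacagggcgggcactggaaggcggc
Rcan1 alternative start: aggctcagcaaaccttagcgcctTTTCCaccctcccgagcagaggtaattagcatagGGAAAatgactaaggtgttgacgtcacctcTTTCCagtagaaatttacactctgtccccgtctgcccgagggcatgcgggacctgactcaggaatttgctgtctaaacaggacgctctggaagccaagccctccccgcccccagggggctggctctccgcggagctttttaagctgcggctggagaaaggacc
Hdac5: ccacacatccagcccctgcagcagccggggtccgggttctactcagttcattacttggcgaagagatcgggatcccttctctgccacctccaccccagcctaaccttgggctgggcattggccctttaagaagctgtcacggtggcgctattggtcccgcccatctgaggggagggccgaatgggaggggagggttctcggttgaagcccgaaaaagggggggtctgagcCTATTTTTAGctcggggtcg
The alternative window of Rcan1 held 3 NFAT cores, at 227, 193 and 163 bases before the start, and the upstream window held 0. Windows of Ppp3cb and Nfatc4, which were not called, also held 3 each. At least 1 such core stood in 55.6% of the 32817 promoter windows of that length, and at least 3 stood in 6.38%. The Hdac5 window held 1 MEF2 motif, from 20 to 11 bases before its start, and 2.92% of windows held at least 1. That window held 0 NFAT cores, and both Rcan1 windows held 0 MEF2 motifs. A match describes these letters only. The counts were given per gene, so transcripts from the 2 Rcan1 starts were counted together.

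The libraries held 63488815 to 78604709 counts, of which genes of the mitochondrial genome took 63.1 to 74.5% and close nuclear copies of mitochondrial sequence 15.9 to 19.5%. Nuclear genes outside these classes and outside ribosomal RNA took 6.34 to 20.3%. This nuclear share was 13.3 ± 5.28% in AngII and 8.14 ± 1.51% in sham libraries (SD, n = 6 each, two-sided exact permutation test p = 0.0455). Sham 50 mg number 12 held 10.8% ribosomal RNA against at most 0.959% elsewhere, and AngII 5 mg number 4 lay at 12.2 on the first principal component, where the rest of the AngII arm ran from -91.3 to -40.3 and the sham arm from 37.3 to 78.6. Counts per gene reached from 47 to 383 for Nfatc4, the least counted of the 10, and from 808 to 5650 for Hdac5. Values below are CPM, counts scaled to a common library size after TMM normalization. Tests are the quasi-likelihood F-tests of edgeR, with p adjusted by Benjamini and Hochberg's method over 16723 genes and called at 0.05. Nothing in the labels says that the 2 libraries of a group came from separate hearts, so p-values measure the spread between these libraries only.

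Per base of exon, Rcan2 stood highest and the 3 NFAT genes and Camk2d lowest. The median over 12 libraries, in CPM per kilobase of exon, was 6.69 for Rcan2, 3.0 for Hdac5 and 2.90 for Rcan1. It was 1.13 for Camk2g, 1.04 for Ppp3ca and 0.661 for Ppp3cb. The remaining 4 lay close together, Nfatc1 at 0.329, Camk2d at 0.313, Nfatc4 at 0.305 and Nfatc3 at 0.267. Neighbours in this order overlapped in their ranges over the libraries in every case. For example, Hdac5 ranged from 1.69 to 4.77 and Rcan1 from 1.47 to 5.11 CPM per kilobase. The deposited TPM values gave another order, with Camk2d, the main CaMKII gene of the heart, first at a median of 34.5 TPM and Hdac5 in place 5 at 4.49 TPM. The length implied by the ratio of counts to TPM was the same in every library for each gene, but for Camk2d it was 0.0425 times that of Hdac5, whereas the annotated exons of Camk2d cover 2.56 times as many bases as those of Hdac5. Other genes departed too. The implied length over the annotated length, both relative to Hdac5, was 0.101 for Nfatc4, 0.179 for Ppp3ca, 0.297 for Nfatc3 and 0.415 for Rcan2. For Ppp3cb it was 0.787, for Camk2g 1.01, for Nfatc1 1.05 and for Rcan1 1.28. The order of levels between these genes thus differs between the 2 scales, and differences within a gene are given below on CPM.

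Between AngII and sham hearts, Rcan1 was lower and Hdac5 was higher, and no other gene of the 10 passed the test. Averaged over the 3 doses, 2 of 10 genes were called, 1 in each direction, where 20.9% of all genes tested were called (13.4% higher and 7.53% lower). At an unadjusted p under 0.05 there were 5 of 10, against 36.7% of all genes. The median log2 fold change of the 10 genes was -0.14 and that of all genes 0.10. The share of the 10 genes called was not above that of genes at large.

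Rcan1 (ENSMUSG00000022951, chr16:92391953-92470867, minus strand) separated the arms without overlap in CPM (gene positions here and below are on GRCm38). Its AngII libraries held 7.61 and 8.01 CPM with vehicle, 7.09 and 7.74 CPM at 5 mg, and 8.42 and 4.54 CPM at 50 mg. Its sham libraries held 13.6 and 12.4 CPM with vehicle, 11.2 and 9.50 CPM at 5 mg, and 13.1 and 15.8 CPM at 50 mg. In CPM every AngII library lay below every sham library, within each dose and over all doses. Of all genes tested, 2.92% were lower without overlap and 7.36% separated in either direction, and Rcan1 was the only one of the 10 that did. The mean fell from 12.6 ± 2.14 CPM in sham to 7.24 ± 1.39 CPM in AngII libraries (SD, n = 6 each), a log2 fold change of -0.79 ± 0.18 (SE, edgeR adjusted p = 0.0107). With number 4 and number 12 both left out it was -0.76 (edgeR adjusted p = 0.0182). The call ended with the nuclear share as a covariate (-0.62, edgeR adjusted p = 0.105), against a 1.5-fold limit (edgeR adjusted p = 0.249), and on the deposited TPM (-0.16, limma adjusted p = 0.699), where the median of all genes was 0.22 in place of 0.10. On that TPM scale the arms overlapped, Rcan1 ranging from 2.57 to 6.43 TPM in AngII and from 3.08 to 7.21 TPM in sham libraries.

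Rcan2 (chr17:43801351-44039516, plus strand), the second calcineurin-binding protein and the one with the highest level, varied widely among AngII hearts. Its AngII libraries held 4.85 and 29.0 CPM with vehicle, 7.32 and 29.6 CPM at 5 mg, and 20.7 and 14.7 CPM at 50 mg. Its sham libraries held 53.2 and 43.2 CPM with vehicle, 42.8 and 33.2 CPM at 5 mg, and 29.9 and 25.2 CPM at 50 mg. Within each dose both AngII libraries lay below both sham libraries, and the arms overlapped only across doses. The log2 fold change was -1.07 ± 0.39 (SE) and did not pass (edgeR adjusted p = 0.0695). It passed without AngII vehicle number 2 (-1.65, edgeR adjusted p = 0.00359) and without AngII 5 mg number 4 (-1.51, edgeR adjusted p = 0.00455), the 2 AngII libraries with the highest Rcan2. It also passed with numbers 4 and 12 both left out (edgeR adjusted p = 0.0110), in DESeq2 (adjusted p = 0.0211) and in limma-voom (adjusted p = 0.0197).

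The catalytic subunits Ppp3ca (chr3:136670124-136937727, plus strand) and Ppp3cb (chr14:20499364-20546573, minus strand) showed no difference past the test. In AngII libraries Ppp3ca held 13.8 and 10.2 CPM with vehicle, 14.8 and 9.40 CPM at 5 mg, and 9.41 and 7.10 CPM at 50 mg, against 9.88 to 14.1 CPM in sham libraries. Ppp3cb held 3.59 and 5.30 CPM, 4.39 and 5.81 CPM, and 5.83 and 8.38 CPM in the same AngII order, against 4.27 to 7.91 CPM in sham libraries. The AngII library with the least Ppp3ca, number 6, had the most Ppp3cb, and the arms overlapped for both genes. The mean of Ppp3ca was 10.8 ± 2.93 CPM in AngII and 11.6 ± 1.71 CPM in sham libraries (SD, n = 6 each), a log2 fold change of -0.11 with a 95% interval from -0.49 to 0.27 (edgeR adjusted p = 0.679). Ppp3cb had 5.55 ± 1.64 and 6.15 ± 1.2 CPM, a log2 fold change of -0.16 with a 95% interval from -0.57 to 0.25 (edgeR adjusted p = 0.565). The intervals allow changes up to these limits in either direction.

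The 3 NFAT genes, Nfatc1 (chr18:80606205-80713071, minus strand), Nfatc3 (chr8:106058840-106130537, plus strand) and Nfatc4 (chr14:55823144-55833943, plus strand), were among the least counted of the 10, and none passed the test. Nfatc1, which is needed in the developing heart valves, held 1.81 and 2.73 CPM with vehicle, 2.13 and 1.69 CPM at 5 mg, and 1.76 and 2.00 CPM at 50 mg in AngII libraries. Its sham libraries held 2.80 and 2.89 CPM, 2.59 and 2.32 CPM, and 2.89 and 4.58 CPM in that order. Within each dose both AngII libraries lay below both sham libraries, and over all doses only AngII vehicle number 2 reached into the sham range. Its log2 fold change of -0.56 ± 0.21 (SE) did not pass (edgeR adjusted p = 0.0773). Nfatc4 held 2.58 and 1.72 CPM, 2.57 and 2.09 CPM, and 2.29 and 1.82 CPM in AngII libraries, and 1.56 and 0.962 CPM, 1.04 and 1.34 CPM, and 1.40 and 2.63 CPM in sham libraries, in the same order of doses. All AngII libraries lay above 5 of the 6 sham libraries, and sham 50 mg number 12 lay above all of them. Its log2 fold change was 0.59 ± 0.26 (SE, edgeR adjusted p = 0.116). Nfatc3, one of the NFAT genes studied for its part in hypertrophy, had a log2 fold change of -0.21 ± 0.21 (SE, edgeR adjusted p = 0.497). Nfatc3 ranged from 2.1 to 4.12 CPM in AngII and from 2.72 to 4.48 CPM in sham libraries, with wide overlap. It shares exon bases with Esrp2 on the opposite strand, and no source used here says whether the counting used strand.

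The CaMKII genes Camk2d (chr3:126596302-126846326, plus strand) and Camk2g (chr14:20734875-20794088, minus strand) varied more among AngII than among sham libraries, with SDs of 4.09 against 2.26 CPM and 5.12 against 0.893 CPM. Camk2d held 7.01 and 12.9 CPM with vehicle, 4.82 and 9.43 CPM at 5 mg, and 14.1 and 4.45 CPM at 50 mg in AngII libraries, against 4.04 to 9.50 CPM in sham libraries. Camk2g held 11.3 and 2.01 CPM, 13.6 and 7.42 CPM, and 16.8 and 10.5 CPM in the same AngII order, against 4.85 to 7.41 CPM in sham libraries. The highest and the lowest Camk2g values of all 12 libraries were both in the AngII arm, and 5 of its 6 libraries lay above every sham library. Neither gene passed the test, Camk2d at a log2 fold change of 0.41 ± 0.28 (SE, edgeR adjusted p = 0.312) and Camk2g at 0.60 ± 0.33 (SE, edgeR adjusted p = 0.208). Without AngII vehicle number 2 the value of Camk2g was 0.88 and passed (edgeR adjusted p = 0.0166), and without AngII vehicle number 1, which leaves number 2 alone in its group, it was 0.03 (edgeR adjusted p = 0.9999).

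Hdac5 (ENSMUSG00000008855, chr11:102194432-102230166, minus strand), the deacetylase of the branch, was the gene of the 10 that rose. Its AngII libraries held 38.8 and 28.8 CPM with vehicle, 38.0 and 21.7 CPM at 5 mg, and 41.9 and 37.7 CPM at 50 mg. Its sham libraries held 27.98 and 23.8 CPM with vehicle, 19.1 and 24.7 CPM at 5 mg, and 14.9 and 17.6 CPM at 50 mg. Of the 6 AngII libraries, 5 lay above every sham library and number 4, at 21.7 CPM, lay among them. The annotated microRNA gene Mir8101 lies in an exon of Hdac5 on the same strand. The mean was 34.5 ± 7.63 CPM in AngII and 21.3 ± 4.94 CPM in sham libraries (SD, n = 6 each), a log2 fold change of 0.71 ± 0.19 (SE, edgeR adjusted p = 0.0190), and 0.87 without numbers 4 and 12 (edgeR adjusted p = 0.00452). The Hdac5 transcript has a GC content of 59.8%, the highest of the 10, and once the trend of counts on GC content was taken out of each library its value was 0.29 and no longer passed (edgeR adjusted p = 0.188), while that of Rcan1 was -0.98 (edgeR adjusted p = 0.00525). The Hdac5 call also ended with the nuclear share as a covariate (0.49, edgeR adjusted p = 0.161), against a 1.5-fold limit (edgeR adjusted p = 0.380), on the TPM (1.09, limma adjusted p = 0.0564) and in edgeR without AngII vehicle number 1 (adjusted p = 0.0634), sham vehicle number 8 (adjusted p = 0.0601), sham 5 mg number 9 (adjusted p = 0.0594) or sham 50 mg number 11 (adjusted p = 0.0532).

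**Figure D1:**
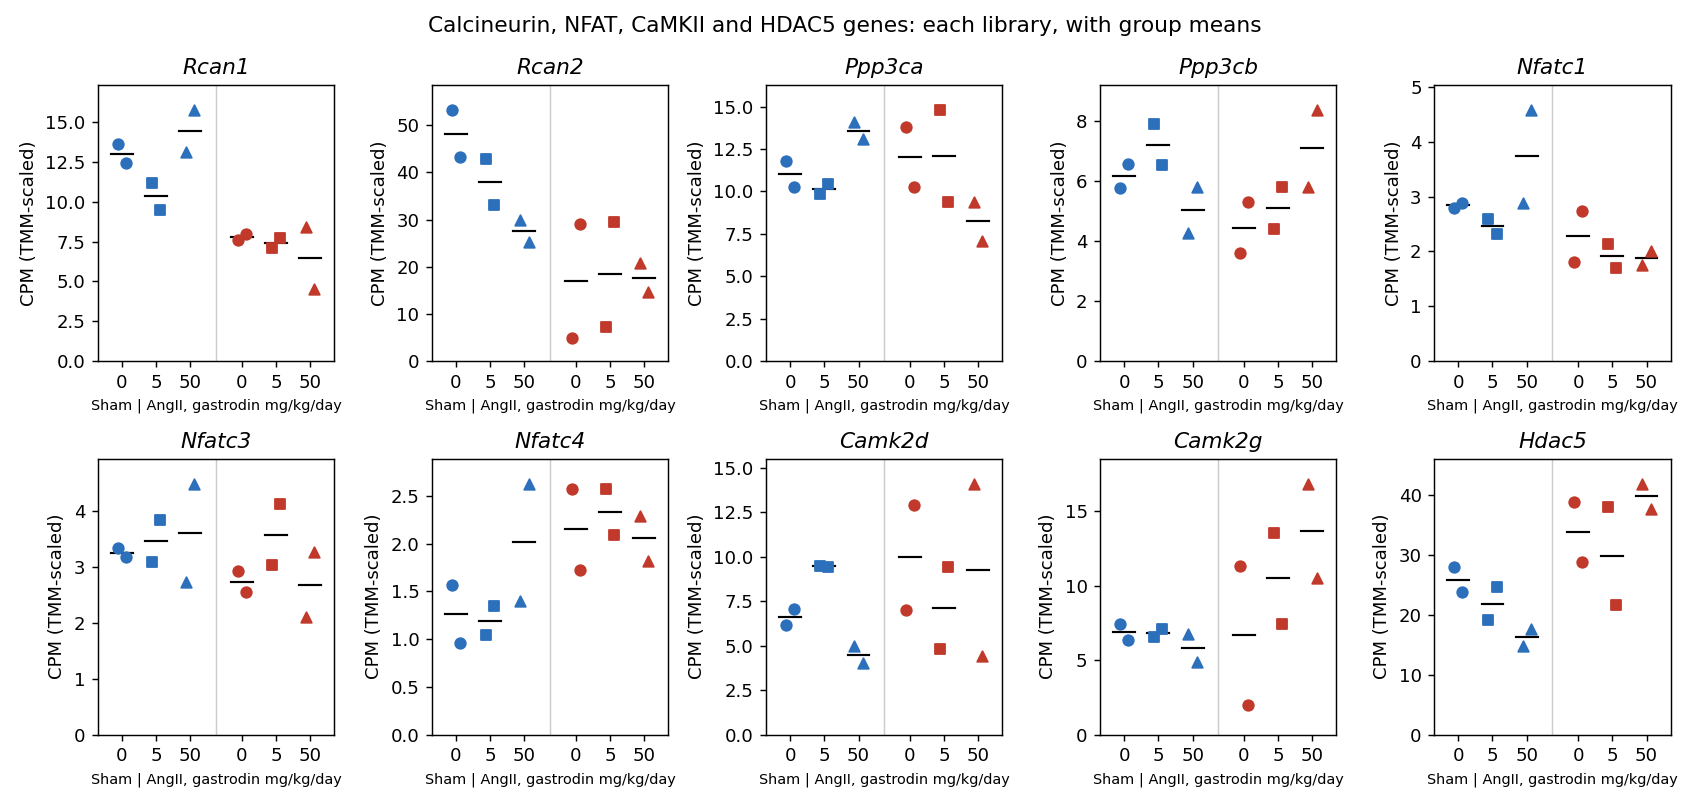
CPM of each of the 10 genes in each library (points; blue sham, red AngII; circles vehicle, squares 5 mg, triangles 50 mg) with the group mean as a black line and gastrodin dose on the horizontal axis. Rcan1 shows no overlap between arms, Hdac5 overlaps only through the AngII library at 21.7 CPM, and Rcan2 and Camk2g spread from 4.85 to 29.6 CPM and from 2.01 to 16.8 CPM in the AngII arm.

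With vehicle alone, the comparison of the model without gastrodin with its control, 0 of 10 genes were called in edgeR, where 0.0598% of all genes were. At an unadjusted p under 0.05 there were 2 of 10, Rcan1 (-0.74 ± 0.31, SE) and Rcan2 (-1.51 ± 0.69, SE), against 16.5% of all genes. DESeq2 and limma-voom each called 0 of 10, against 4.60% and 0.0299% of all genes. The share of all genes in edgeR was 2.94% without AngII 5 mg number 4 and 2.69% without number 3, both outside this comparison but in the same fit, and 0 of 10 were called in either fit. At 5 mg, edgeR called 0 of 10 and 0% of all genes, with 0 of 10 against 12% at an unadjusted p under 0.05. DESeq2 and limma-voom called 0 of 10, against 1.79% and 0% of all genes. Without number 4 the share of all genes at 5 mg was 6.52%, and 0 of the 10 were called. With 2 libraries a group the intervals were wide, that of Hdac5 with vehicle reaching from -0.31 to 1.07 around 0.38.

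At 50 mg, Hdac5 was called (log2 fold change 1.29 ± 0.32, SE, edgeR adjusted p = 0.0383), 1 of 10 where 5.42% of all genes were called. Its AngII pair at 41.9 and 37.7 CPM lay above its sham pair at 14.9 and 17.6 CPM without overlap. Rcan1 had a log2 fold change of -1.16 ± 0.32 (SE) and lay just outside the threshold (edgeR adjusted p = 0.0509). Both were called by DESeq2 and by limma-voom. At an unadjusted p under 0.05 there were 4 of 10, against 24% of all genes: these 2, Nfatc1 (-0.99 ± 0.37, SE, edgeR adjusted p = 0.127) and Ppp3ca (-0.72 ± 0.31, SE, edgeR adjusted p = 0.174). The call of Hdac5 held in 8 of 13 alternatives other than leaving out a single library. It ended, among others, on TPM and with the 1.5-fold limit. With each library left out in turn the value of Hdac5 stayed between 1.18 and 1.43. Its edgeR call ended without any 1 of the 4 libraries compared, AngII 50 mg number 5 (adjusted p = 0.121) and number 6 (0.115) and sham 50 mg number 11 (0.198) and number 12 (0.174), without sham vehicle number 7 (0.0545) or number 8 (0.0545), and after removal of the GC trend (0.81, adjusted p = 0.0913).

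**Figure D2:**
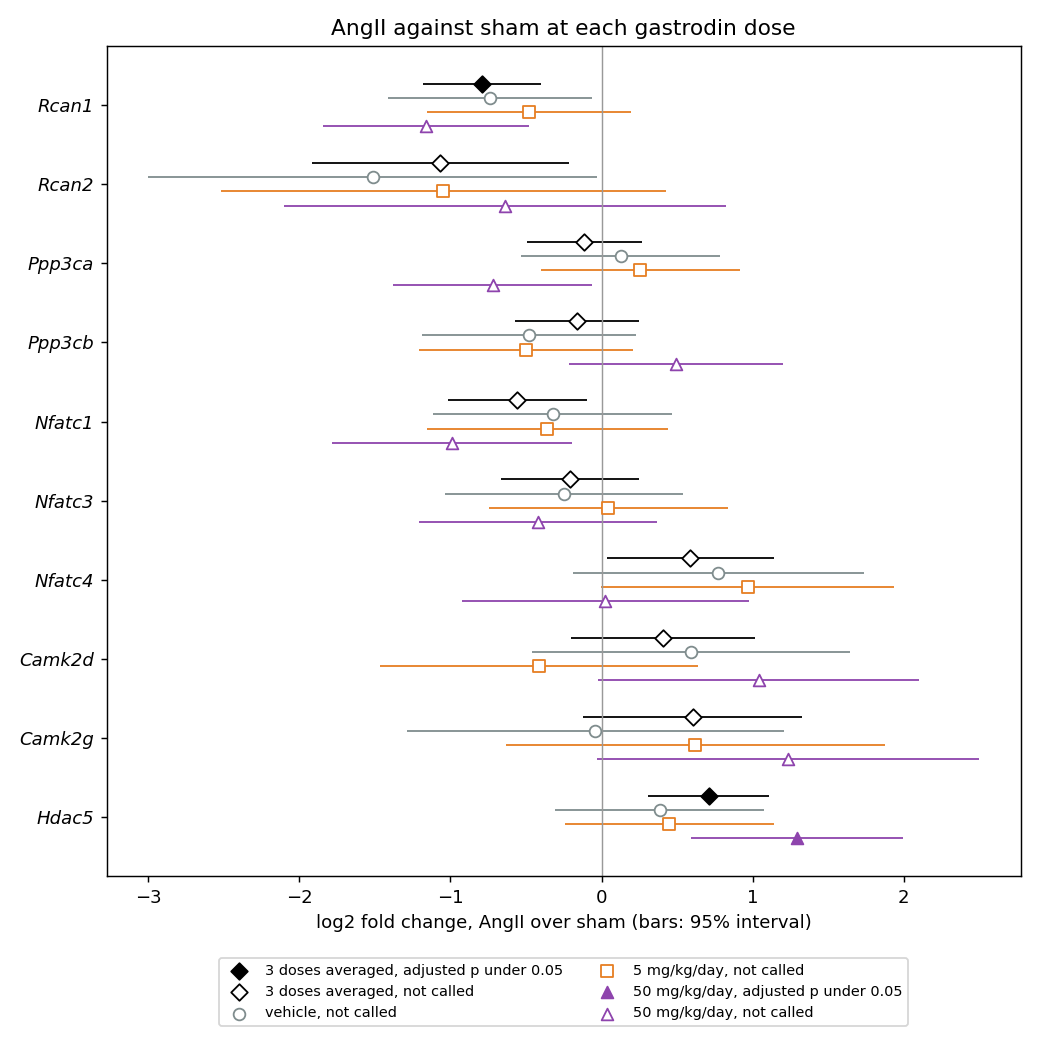
Log2 fold change of AngII over sham for each gene (horizontal axis) with its 95% interval, for the 3 doses averaged (black diamonds), vehicle (grey circles), 5 mg (orange squares) and 50 mg (purple triangles). Filled symbols passed an adjusted p of 0.05 in edgeR: Rcan1 at -0.79, Hdac5 at 0.71 over all doses and Hdac5 at 1.29 at 50 mg.

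Whether gastrodin moved these genes was asked within each arm, each dose against the vehicle libraries that both doses share. In edgeR 0 of 10 genes were called in any of the 4 comparisons and 0 of 10 passed an unadjusted p of 0.05. DESeq2 and limma-voom called 0 of 10, where they called at most 1.63% and 0.12% of all genes. In edgeR all genes were called at 0.00598% for 5 mg and 0.012% for 50 mg in AngII hearts, and at 0.0179% for 5 mg and 0.149% for 50 mg in sham hearts. At an unadjusted p under 0.05 these shares were 1.74%, 1.88%, 4.12% and 9.22%. In AngII hearts at 50 mg the log2 fold change of Rcan1 was -0.27 with a 95% interval from -0.95 to 0.40, and that of Hdac5 was 0.24 from -0.45 to 0.92. The 2 catalytic subunits had -0.54 for Ppp3ca (from -1.20 to 0.11) and 0.68 for Ppp3cb (from -0.03 to 1.39). In sham hearts at 50 mg Hdac5 had -0.67 (from -1.37 to 0.02). The intervals do not exclude changes of these sizes, nor their absence.

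The difference between arms in the response to gastrodin, tested as an interaction, was called in edgeR for 0 of 10 genes at 5 mg and 0 of 10 at 50 mg, against 0.00598% and 0.0299% of all genes. Of the 10 genes 0 passed an unadjusted p of 0.05 at either dose, against 3.07% and 6.93% of all genes. DESeq2 and limma-voom called 0 of 10, against at most 0.72% and 0.0359% of all genes. The 50 mg interaction was 0.97 for Ppp3cb (95% interval from -0.03 to 1.97, edgeR adjusted p = 0.740), -0.85 for Ppp3ca (from -1.78 to 0.08, edgeR adjusted p = 0.761) and 0.91 for Hdac5 (from -0.07 to 1.89, edgeR adjusted p = 0.753). The larger value of Hdac5 at 50 mg than with vehicle was therefore not shown to differ.

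Ratios of related genes within a library do not depend on how libraries are scaled, and 5 were compared between arms by a two-sided exact permutation test. The log2 ratio of Rcan1 to Ppp3ca, the inhibitor against a catalytic subunit, was -0.56 ± 0.35 in AngII and 0.12 ± 0.19 in sham libraries (SD, n = 6 each). All 6 AngII libraries, at -1.06 to -0.16, lay below all 6 sham libraries, at -0.13 to 0.28. The difference of -0.68 had p = 0.00216, the smallest the exact test can give, and 0.0108 after Benjamini-Hochberg adjustment over the 5 ratios. Permuting within dose gave an adjusted exact p of 0.0463. This ratio uses the same Rcan1 counts as the test above, and Ppp3ca itself had a log2 fold change of -0.11. It is therefore not a result separate from that of Rcan1. The log2 ratio of Nfatc3 to Nfatc4 was 0.45 ± 0.42 in AngII and 1.27 ± 0.38 in sham libraries (SD, n = 6 each), a difference of -0.82 (exact permutation p = 0.0108, adjusted 0.0271, and 0.0463 within dose). Its arms overlapped, AngII reaching 0.98 and sham starting at 0.77. The ratios of Rcan1 to Rcan2 (0.53, adjusted exact p = 0.516), Ppp3ca to Ppp3cb (0.04, adjusted exact p = 0.913) and Camk2d to Camk2g (-0.13, adjusted exact p = 0.913) did not differ beyond their spread. Camk2d to Camk2g ran from -1.49 to 2.68 in AngII but only from -0.45 to 0.53 in sham libraries.

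**Figure D3:**
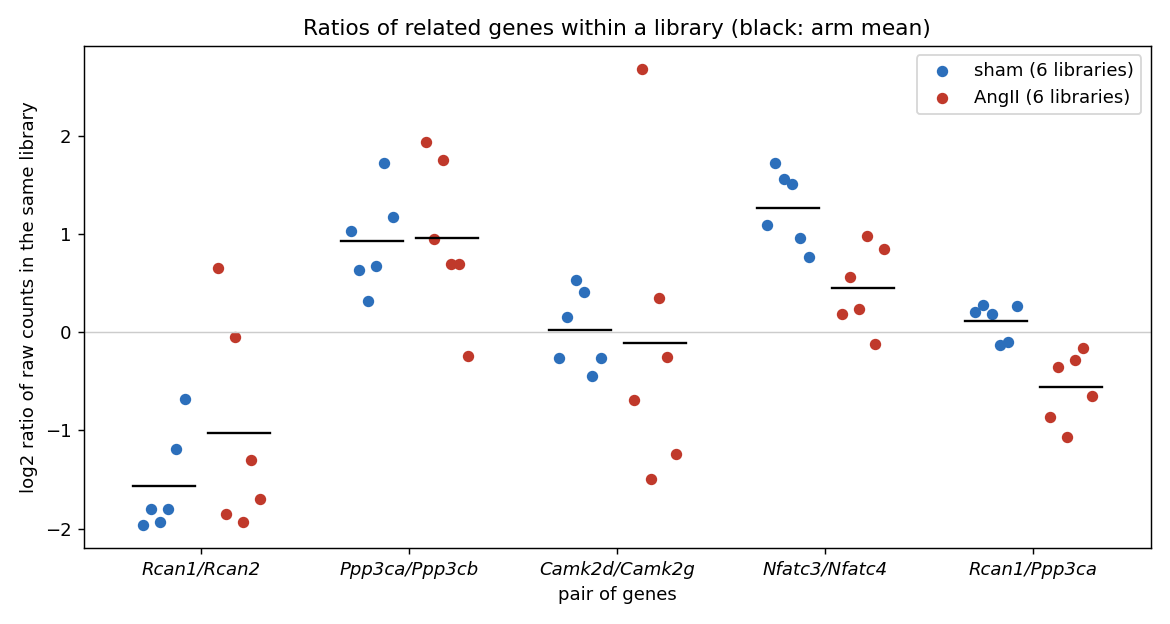
Log2 ratio of raw counts of 2 genes in the same library (vertical axis) for 5 pairs, with 6 sham libraries in blue, 6 AngII libraries in red and arm means as black lines. For Rcan1 to Ppp3ca the AngII points end at -0.16 and the sham points start at -0.13, and for Nfatc3 to Nfatc4 the means are 0.45 and 1.27.

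The rest of the pathway was read from 8 lists of genes by role, in AngII against sham averaged over doses, where 13.4% of all genes were higher and 7.53% lower. Of the calcineurin subunits 0 of 4 tested were higher, 1 was lower and 3 did not pass. The one that fell was Ppp3r1, the regulatory B subunit, at 4.49 ± 1.33 CPM in AngII and 7.98 ± 1.48 CPM in sham libraries (SD, n = 6 each) with no overlap (-0.83 on the log2 scale, edgeR adjusted p = 0.0232). The list median was -0.32. Among 14 regulators and anchors 1 was higher and 5 were lower, with a median of -0.73. Cabin1, a protein that binds calcineurin and also represses MEF2, rose from 5.62 ± 0.492 to 15.6 ± 5.90 CPM (SD, n = 6 each), by 1.47 on the log2 scale (edgeR adjusted p = 0.00336). Fkbp1a, the binding protein of the drug FK506, fell by 1.17 on the log2 scale (edgeR adjusted p = 0.00796). Ppia, the binding protein of cyclosporin (-0.86, edgeR adjusted p = 0.0188), and Csrp3, a LIM protein of the Z-disc (-0.73, edgeR adjusted p = 0.0205), also fell, beside Rcan1 and Chp1. FKBP12 and cyclophilin A, the products of Fkbp1a and Ppia, inhibit calcineurin only with a drug bound. With the nuclear share as a covariate, on TPM and against a 1.5-fold limit, 0 of these 14 genes were lower, where 0.478%, 0.182% and 0.484% of all genes were, and Cabin1 was higher in each.

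Of 6 calcium sensors 1 was higher and 2 were lower, with a median of -0.22. Calm2 (-0.85, edgeR adjusted p = 0.0245) and Calm3 (-0.84, edgeR adjusted p = 0.0289), which encode the same calmodulin protein, fell. Pcp4, a small calmodulin-binding protein, ranged from 0 to 0.294 CPM in sham and from 0.618 to 1.35 CPM in AngII libraries and rose by 3.12 on the log2 scale (edgeR adjusted p = 0.0133). Of the 5 NFAT genes 2 were higher, 0 were lower and 3, all described above, did not pass, with a median of 0.59. Nfatc2 rose from 3.16 ± 0.796 to 7.88 ± 2.84 CPM (SD, n = 6 each), by 1.31 (edgeR adjusted p = 0.00353), and Nfat5, which lacks the calcineurin-binding region of the other 4, rose by 0.89 (edgeR adjusted p = 0.0219). Of 13 NFAT kinases and partners 0 were higher, 1 was lower and 12 did not pass, with a median of -0.08. The one was Mapk9, which encodes the kinase JNK2 (-0.85, edgeR adjusted p = 0.0309).

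Of 13 CaM kinases and inhibitors 1 was higher, 2 were lower and 10 did not pass, with a median of 0.34. Camk2n1, an inhibitor of CaMKII, fell by 0.91 (edgeR adjusted p = 0.0259) and Camkk2, an upstream kinase, fell by 0.72 (edgeR adjusted p = 0.0441), while Pnck, a kinase of the CaMKI group, rose by 0.97 (edgeR adjusted p = 0.0435). On the branch of class IIa deacetylases and MEF2, 5 of 14 were higher, 0 were lower and 9 did not pass, with a median of 0.57. Besides Hdac5 these were Hdac4 (2.47 ± 0.447 to 4.81 ± 0.682 CPM, SD, n = 6 each; 0.96 on the log2 scale, edgeR adjusted p = 0.00553), Hdac7 (1.06, edgeR adjusted p = 0.0171), Camta2, a coactivator that class IIa deacetylases bind (1.23, edgeR adjusted p = 0.00621), and Prkd2, a kinase that phosphorylates them (0.69, edgeR adjusted p = 0.0288). After removal of the GC trend 3 of 14 were higher, where 11.7% of all genes were. These were Hdac4 at 0.87, Camta2 at 0.82 and, newly, Mef2a, while Hdac5, Hdac7 and Prkd2 no longer passed. The count was 1 with the nuclear share as a covariate, 1 on TPM and 0 against a 1.5-fold limit. The shares of all genes higher were 2.4%, 8.6% and 4.33% in these settings. Upstream, 2 of 13 genes tested of the Gq, phospholipase C, TRPC and IP3 receptor list were higher, 0 were lower and 11 did not pass, with a median of 0.20. They were the IP3 receptor genes Itpr2 (0.91, edgeR adjusted p = 0.0217) and Itpr3 (1.26, edgeR adjusted p = 0.0229). Trpc6 did not pass the filter on low counts, and Ppp3r2 was not analysed here.

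Many of these calls depended on single libraries. Of all genes, too, a smaller share was called with a library left out, in every such fit except that without number 4. With each library left out in turn, Cabin1, Fkbp1a, Pcp4, Nfatc2, Hdac4, Hdac7 and Camta2 were called in 12 of 12 edgeR fits. The call of Ppia ended without number 1 or 6, that of Camk2n1 without 1, 6, 8 or 11 and that of Itpr2 without 1, 8, 9 or 11. Calm2 lost it without 1, 6, 8, 10 or 12 and Csrp3 without 1, 6, 7, 9 or 12. Ppp3r1 and Nfat5 lost it without 1, 3, 6, 7, 10 or 12, Calm3 without 1, 6, 7, 8, 10 or 12, Mapk9 without 1, 2, 6, 8, 9 or 12 and Itpr3 without 1, 3, 6, 8, 9 or 11. Camkk2, Pnck and Prkd2 were called in only 3 of 12 such fits, Camkk2 and Pnck without number 2, 4 or 11 and Prkd2 without number 2, 4 or 6.

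On TPM, limma called Cabin1, Pcp4, Nfatc2 and Camta2 of these 20 genes. The values of several genes that fell were much smaller there, -0.18 for Ppp3r1 (limma adjusted p = 0.616), -0.28 for Calm2 (0.520), -0.30 for Calm3 (0.453), -0.08 for Mapk9 (0.779), -0.05 for Camkk2 (0.859) and -0.31 for Camk2n1 (0.374). The value of Itpr3 was 0.52 on TPM (limma adjusted p = 0.0881) and 0.34 with the nuclear share as a covariate (edgeR adjusted p = 0.495).

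**Figure D4:**
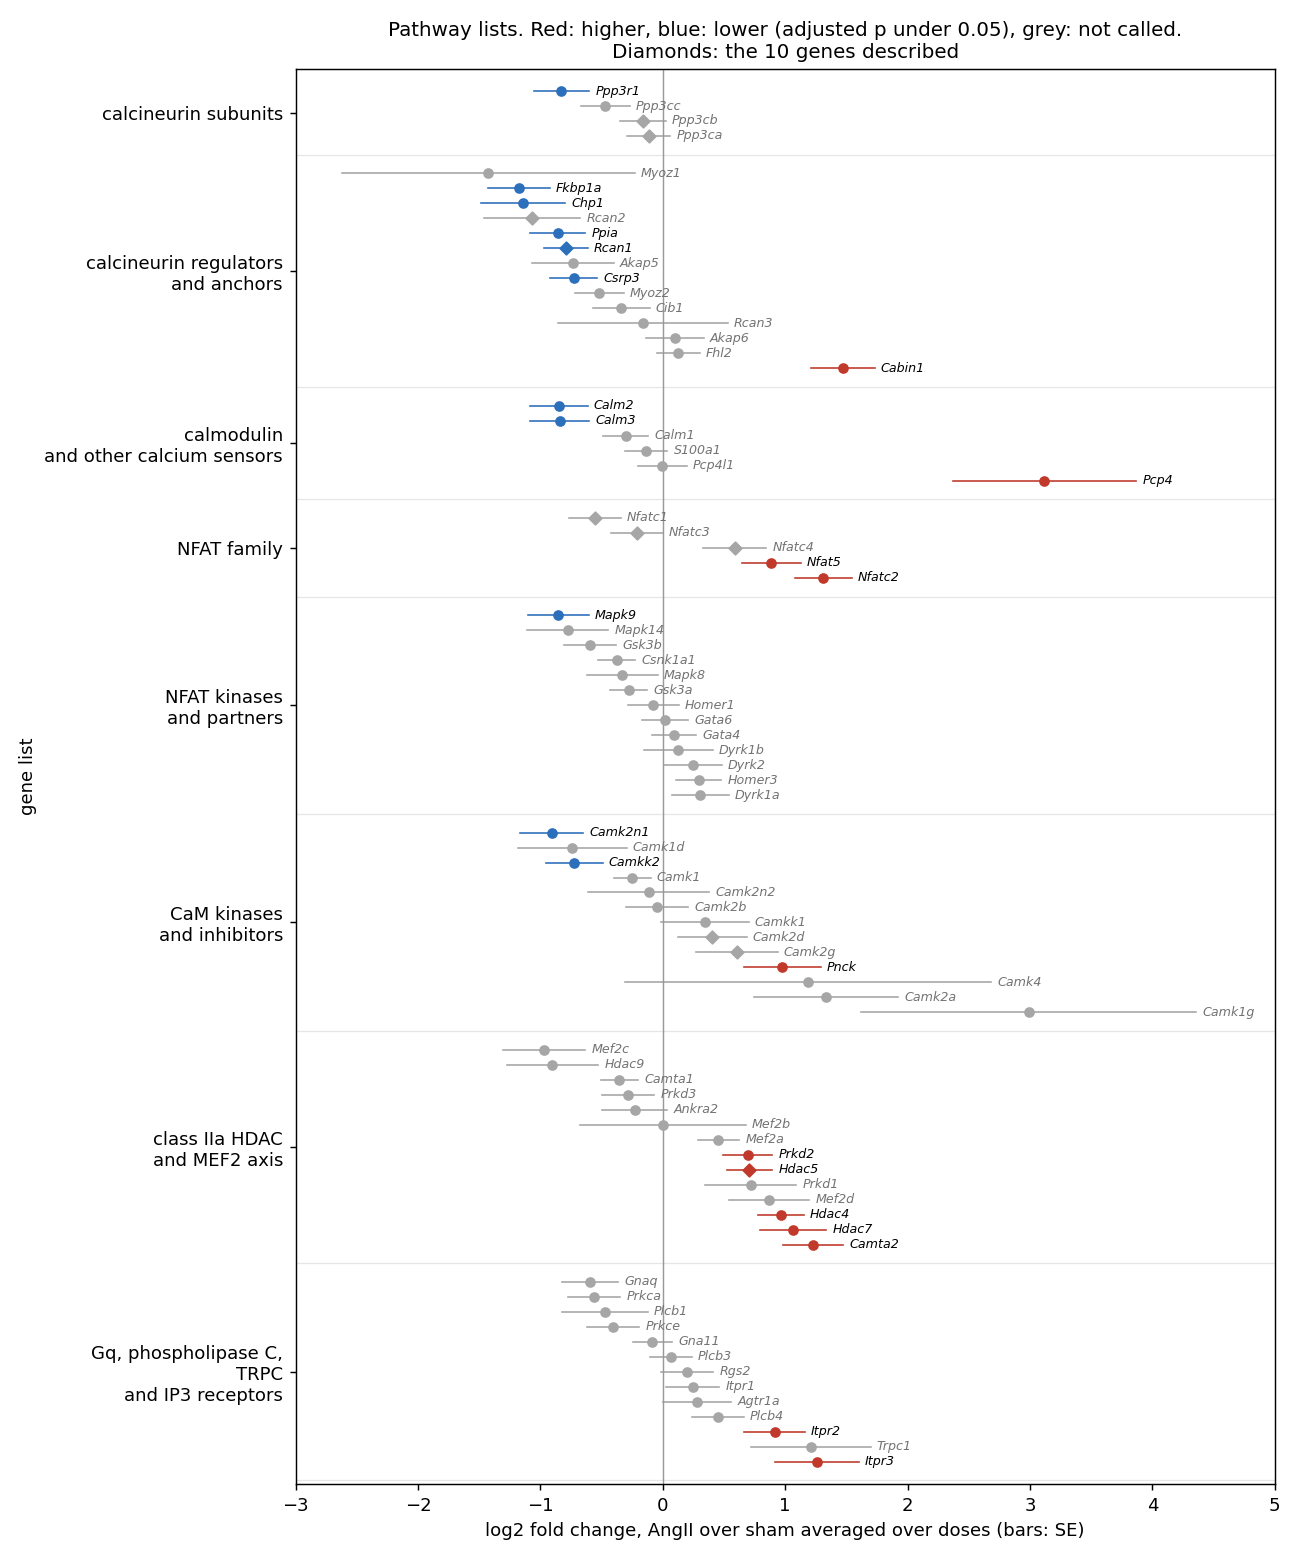
Log2 fold change of AngII over sham averaged over doses (horizontal axis) with its SE for each tested gene of 8 lists, red where higher and blue where lower at an edgeR adjusted p under 0.05, grey otherwise, with the 10 genes as diamonds. The calcineurin regulators lie mostly to the left, with Cabin1 at 1.47 on the right, and the called genes of the deacetylase branch lie between 0.69 and 1.23.

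Markers of several cell types also differed between the arms averaged over doses, where 13.4% of all genes were higher and 7.53% lower. Heart muscle markers were plentiful in every library, summing to 4824 to 8844 CPM in AngII and 3369 to 6137 CPM in sham libraries, with 4 of 8 higher and 1 lower. Endothelial markers summed to 87.0 to 185 against 61.7 to 84.8 CPM with 4 of 6 higher, and smooth muscle and pericyte markers to 106 to 321 against 77.5 to 162 CPM with 4 of 6 higher. Fibroblast markers summed to 56.6 to 89.8 against 63.7 to 229 CPM with 4 of 6 lower, and macrophage and leukocyte markers to 17.6 to 79.8 against 29.4 to 118 CPM with 2 of 6 lower. Red cell markers had 5 of 5 higher, at 1028 to 3347 against 290 to 1741 CPM. Nuclear-retained RNAs, led by Neat1 and Malat1, summed to 726 to 1182 against 246 to 635 CPM without overlap, with 3 of 6 higher. Lung markers summed to 1.84 to 11.4 against 0.0559 to 2.49 CPM, with both of the 2 tested, Scgb1a1 and Scgb3a1, higher. The other lung markers, Sftpc, Sftpb, Sftpa1 and Sftpd, were at most 0.127 CPM in any library. Skeletal muscle markers summed to 0.198 to 0.829 against 0.239 to 0.664 CPM, with 0 of 3 tested called and with Myh2 and Myh4 at 0 in all 12 libraries. The part of any of these in the differences of Rcan1, Hdac5 and the listed genes was not tested, and in RNA of a heart fewer cells of a type and less RNA per cell cannot be told apart.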

How the data were processed

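Total RNA of 12 mouse heart libraries was measured by paired-end sequencing. The authors deposited a matrix of raw read counts per gene and TPM values per gene, per the file headers. The submitters' processing notes name HISAT2 2.2.1, StringTie 2.1.3 and GRCm38.p6; no source used here names the counting program or its use of strand. Gene identifiers were matched to GENCODE annotation of GRCm38, and promoter windows came from RefSeq.

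Counts were fitted in edgeR 4.0.16 (R 4.3.3; filterByExpr, TMM, quasi-likelihood test, 1 mean per group over 12 libraries), with adjustment over 16723 genes. Alternatives used DESeq2 1.42.0, limma 3.58.1 (voom, and trend on log2(TPM + 1)), other filters and scalings, a 1.5-fold limit, the nuclear share, GC trend and each library left out. The GC alternative was chosen after seeing the data. Scripts were tested on simulated data. The 10 genes and the lists were chosen with earlier results of these data known. The text names all 10, up to 4 called genes per list with the smallest p (Chp1 was added after its values were seen), and the 3 genes most like Rcan1, Camk2d and Hdac5 by Pearson's r of log2 CPM among named genes with a mean of at least 10 CPM. 1 gene of the upstream list is not reported here.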

Additional observations from a re-analysis of the deposited data

Results flagged for a closer look

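The 6 libraries of an arm, pooled over the 3 doses, were examined for 1 library far from the others, for 10 genes (20 sets) and 5 ratios (10 sets). Such a library was found in 3 of 30 sets, all 3 for a gene, where chance gives about 1 in 20. Rcan1 in AngII 50 mg number 6 was at 4.54 CPM, with the next lowest AngII library at 7.09 CPM. Without that library the averaged difference still passed, since the Rcan1 call held with any 1 library left out. Sham 50 mg number 12, the library with 10.8% ribosomal RNA, was highest for 2 NFAT genes. Nfatc1 was at 4.58 CPM there against 2.89 CPM in the next sham library, and Nfatc4 at 2.63 CPM against 1.56 CPM. These sets pool doses, and at 50 mg each group has 2 libraries.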

How the results depend on the processing

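The count of genes called between arms averaged over doses was 2 of 10, where 20.9% of all genes were called. With all 12 libraries kept, the count was 3, with Rcan2 added, in DESeq2 (27.5% of all genes) and limma-voom (26.9%), and 4 with no filter on low counts (17.6%). It was 0 on TPM (8.78%), with a 1.5-fold limit (4.81%) and with the nuclear share as a covariate (2.88%). It ran from 1 to 4 with each library left out, at 1 (Rcan1 only) without AngII vehicle number 1, sham vehicle number 8, sham 5 mg number 9 or sham 50 mg number 11 and at 4 without AngII vehicle number 2. Rcan1 was called in 12 of 12 such fits and 9 of 12 others, Hdac5 in 8 of 12 and 8 of 12. With the GC trend removed the count stayed at 2, where 19.1% of all genes were called, but the genes were Rcan1 and Nfatc1 (-0.72, edgeR adjusted p = 0.0326). With vehicle the count of 0 became 1 (Rcan2) with no filter, where 4.46% of all genes were called. At 50 mg Hdac5 was called in 8 of 13 alternatives. A count that stayed at 1 was not always Hdac5, which was not called after removal of the GC trend. The count of 1 (5.42% of all genes) became 2 with DESeq2 (14.2%), limma-voom (6.74%) and at least 1 CPM in 6 libraries (11.8%). The count was also 2 with overlapping genes summed (6.27%) and with only the groups compared (12.5%, there Camk2g with Hdac5). It was 3 with no filter (8.97%), and 0 on TPM (0.126%) and with the 1.5-fold limit (1.7%). It ran from 0 to 2 with each library left out. No called value changed sign. Fewer alternatives were run for the 5 ratios, 12 that omitted 1 library and 2 others. The 2 others were permutation within dose and omission of both number 4 and number 12. All 5 ratios kept their side of the threshold in these runs. Omitting 1 library gave Rcan1 to Ppp3ca between -0.76 and -0.58 and Nfatc3 to Nfatc4 between -0.93 and -0.71. GC content was 54.5% for Rcan1 and 45.4% for Ppp3ca, and 45.9% for Nfatc3 and 58.8% for Nfatc4. Whether these ratios hold after removal of the GC trend was not tested. Over all genes, calls split as 2241 higher and 1260 lower, 1227 and 26 on TPM, 724 and 81 with the 1.5-fold limit and 402 and 80 with the nuclear share. With each library left out, the share of all genes called between arms averaged over doses fell, except without number 4. The cause of these changes was not tested. No paired analysis was possible because the library numbers are not shared between groups. With 2 libraries a group, and at most 383 counts for Nfatc4, small changes were not detectable, and the comparisons within a dose rest on spread pooled over all 6 groups.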

Other observations

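The levels of the 2 catalytic subunits of calcineurin were inversely related over the libraries, though not past adjustment. Over 12 libraries Ppp3ca and Ppp3cb had Pearson r = -0.82 (permutation p = 0.0015) and Spearman rho = -0.75 (permutation p = 0.0075). This pair was picked for the largest Pearson r of 45 pairs of the 10 genes (by Spearman 3 other pairs were larger, Rcan2 with Nfatc4 at -0.82, Rcan1 with Nfatc1 at 0.79 and Nfatc1 with Camk2g at -0.77), and after adjustment over 45 neither passed (0.0675 and 0.0844). Within arms r was -0.95 in 6 AngII and -0.91 in 6 sham libraries, and over both arms -0.71 without the 2 libraries farthest from the median of Ppp3ca. The extremes of the ratio of Ppp3ca to Ppp3cb were AngII vehicle number 1, with Ppp3ca at 13.8 and Ppp3cb at 3.59 CPM, and AngII 50 mg number 6, at 7.10 and 8.38 CPM. The libraries share their scaling and preparation, and the source of this pattern was not tested.

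By likeness of log2 CPM over the 12 libraries among 1819 genes, Rcan1 was closest to Arhgef12 (r = 0.97), Wwtr1 (0.90) and Maea (0.90), and Hdac5 to Pank4 (0.97), Cluh (0.96) and Lgr6 (0.96). The closest to Camk2d were Nsfl1c (0.77), Ivd (0.75) and Mtfr1l (0.70). These are descriptions over libraries that also differ in arm.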
